A study of Mus musculus with 99 samples.

Results

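A set of 10 genes that mark astrocytes, or carry out the work of these cells, were followed through 5 brain regions of juvenile mice and through perinatal exposure to fentanyl. The genes (Gfap, Aqp4, Aldh1l1, Slc1a2, Slc1a3, Gja1, S100b, Glul, Agt and Slc6a11) were taken by symbol from the 55335 gene identifiers counted in each library, and all 10 had counts in each of the 98 libraries used. The mice were C57BL/6 wildtype offspring of dams that drank fentanyl (an opioid receptor agonist) at 10 µg/ml in their water from embryonic day 0 until weaning, or plain water. RNA came from bulk tissue of 5 places. They were the dopamine-rich ventral tegmental area (VTA) of the midbrain, a somatosensory thalamic nucleus (ventrobasal, VBT), the cortical area that receives its output (S1, primary somatosensory), prelimbic prefrontal cortex (PrL) and, in the ventral striatum, nucleus accumbens (NAc). Each region has females and males of both exposures, which gives 20 groups, 19 of 5 libraries and 1 (S1, males, water) of 4. The labels give the age as juvenile only and name no litter or animal. The p-values therefore measure the spread between these libraries and not between litters.

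Astrocytes clear glutamate and GABA from synapses, turn glutamate into glutamine for neurons, buffer water and potassium at their endfeet, and are joined to one another by gap junctions. They differ between brain regions in the amounts of these proteins, and Gfap in particular is known to be low in many cortical grey matter astrocytes and high near white matter and in reactive cells. Astrocytes are also a main source of angiotensinogen in the brain.

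Library totals ran from 16515545 to 52069639 counts, and the libraries used detected between 24079 and 27347 genes. The library labelled VTA male water 3 detected 6333 genes and is left out. Its Aldh1l1 count was 0. VTA therefore has 4 male water libraries and 9 water libraries in all. Some other libraries stand apart by markers of neighbouring tissue. PrL male water 3 and PrL female water 5 had summed levels of 4 olfactory bulb markers of 324 and 171 CPM (a gene's counts scaled to a common total over all genes), against at most 53.7 CPM in the other libraries used. VBT female water 2 had choroid plexus genes at 4512 CPM, and VBT male water 3 had the highest oligodendrocyte marker sum of all, 47337 CPM. For some of the values that moved when these libraries were left out, both values are given. All other values include these libraries, and some of those would move too. The NAc libraries varied in 5 markers of cortical projection neurons, whose sums ran from 53.7 to 1373 CPM, against 1245 to 1513 CPM in the S1 water libraries.

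The genes lie on 8 chromosomes of the GRCm38 build. Gfap (ENSMUSG00000020932, chr11:102887336-102900912, minus strand) encodes the glial intermediate filament. S100b (ENSMUSG00000033208, chr10:76253853-76261159, plus strand) encodes a calcium-binding protein that oligodendrocytes also make. Aldh1l1 (ENSMUSG00000030088, chr6:90486427-90600203, plus strand) encodes a folate enzyme used as a general astrocyte marker. Aqp4 (ENSMUSG00000024411, chr18:15389496-15410982, minus strand) encodes the water channel of astrocyte endfeet, and Gja1 (ENSMUSG00000050953, chr10:56377330-56402513, plus strand) encodes connexin 43.

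Slc1a2 (ENSMUSG00000005089, chr2:102658659-102790784, plus strand) and Slc1a3 (ENSMUSG00000005360, chr15:8634124-8710764, minus strand) encode the glutamate transporters GLT-1 and GLAST. Slc6a11 (ENSMUSG00000030307, chr6:114131241-114249952, plus strand) encodes the GABA transporter GAT-3. Glul (ENSMUSG00000026473, chr1:153899944-153909723, plus strand) encodes glutamine synthetase. Agt (ENSMUSG00000031980, chr8:124556534-124569706, minus strand) encodes angiotensinogen, the precursor of the angiotensin peptides. All are counted over their exons. Aldh1l1 shares 499 exonic bases with an antisense transcript and Slc1a2 shares 189 with another, and whether counting used the strand is not given in the sources used here.

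The bases before the transcription start are shown for the 4 genes with the clearest regional pattern: 2 that were highest in VTA and VBT (Agt, Slc6a11) and 2 that were highest in S1, PrL and NAc (Slc1a2, Slc1a3). Each run is the 150 bases before the RefSeq start on GRCm38.p6, read 5′ to 3′ on the gene's strand. Capitals mark matches on either strand to 1 of 2 motifs. The first is TTGGC (on the other strand GCCAA), a half-site of the NFI family of glial transcription factors. The second is TATAAA, the TATA box (on the other strand its complement TTTATA).
Agt (chr8:124569707-124569856, minus strand): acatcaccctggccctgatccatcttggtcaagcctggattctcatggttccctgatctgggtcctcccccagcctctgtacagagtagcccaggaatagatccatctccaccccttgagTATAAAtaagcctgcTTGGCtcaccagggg
Slc6a11 (chr6:114131091-114131240, plus strand): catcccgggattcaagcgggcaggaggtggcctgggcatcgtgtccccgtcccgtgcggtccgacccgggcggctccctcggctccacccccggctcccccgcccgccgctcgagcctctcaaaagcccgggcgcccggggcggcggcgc
Slc1a2 (chr2:102706288-102706437, plus strand): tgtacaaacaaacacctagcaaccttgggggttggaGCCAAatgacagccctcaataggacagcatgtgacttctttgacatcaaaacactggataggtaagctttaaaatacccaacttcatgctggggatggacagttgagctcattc
Slc1a3 (chr15:8710808-8710957, minus strand): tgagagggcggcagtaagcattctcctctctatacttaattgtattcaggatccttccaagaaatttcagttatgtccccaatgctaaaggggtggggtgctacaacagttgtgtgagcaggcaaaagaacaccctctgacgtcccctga

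The window of Slc1a2 lies within the gene's span, before an internal RefSeq start, as do those of Gfap and Aldh1l1 among the genes whose window is not printed. Agt and Slc6a11 differ in base composition before their starts, and Slc1a2 and Slc1a3 are alike. Over the full 250 bases before the start, Slc6a11 had 25 CG dinucleotides at 71.2% GC and Agt had 0 at 55.6% GC, while Slc1a2 and Slc1a3 had 1 and 2 at 44.8% GC each. The TATAAA of Agt begins 30 bases before the start. An NFI half-site was found in the 250 bases of 4 of the 9 genes whose window is in the table (Agt, Glul, S100b and Slc1a2), against 41.5% of 32851 promoters. TATAAA or TTTATA was found in Agt and Slc1a3, against 12.4% of promoters. The match in Slc1a3 is TTTATA, on the other strand, and begins 161 bases before the start. AACAAT or its complement ATTGTT, a core of SOX factor sites, was found in none of the 9, against 9.42%. These matches describe letters in a window and are no evidence of binding.

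In the water-exposed mice, 5 genes were high in VTA and VBT and low in S1, PrL and NAc, and 2 genes had the opposite order. Agt had the widest range, followed by Slc6a11, Gfap, S100b and Aqp4, while Slc1a2 and Slc1a3 were lowest in VTA and VBT. Glul, Gja1 and Aldh1l1 varied least, 1.29-fold, 1.61-fold and 1.70-fold between the highest and the lowest mean. Regions were compared in 1 fit of the 10 region and sex groups of water libraries (edgeR's quasi-likelihood test, averaged over the sexes, with Benjamini-Hochberg adjustment over 21468 genes). A gene is called at an adjusted p under 0.05. In bulk tissue, fewer astrocytes and less RNA per astrocyte cannot be told apart. The 10 comparisons share libraries and are not independent.

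**Figure D1:**
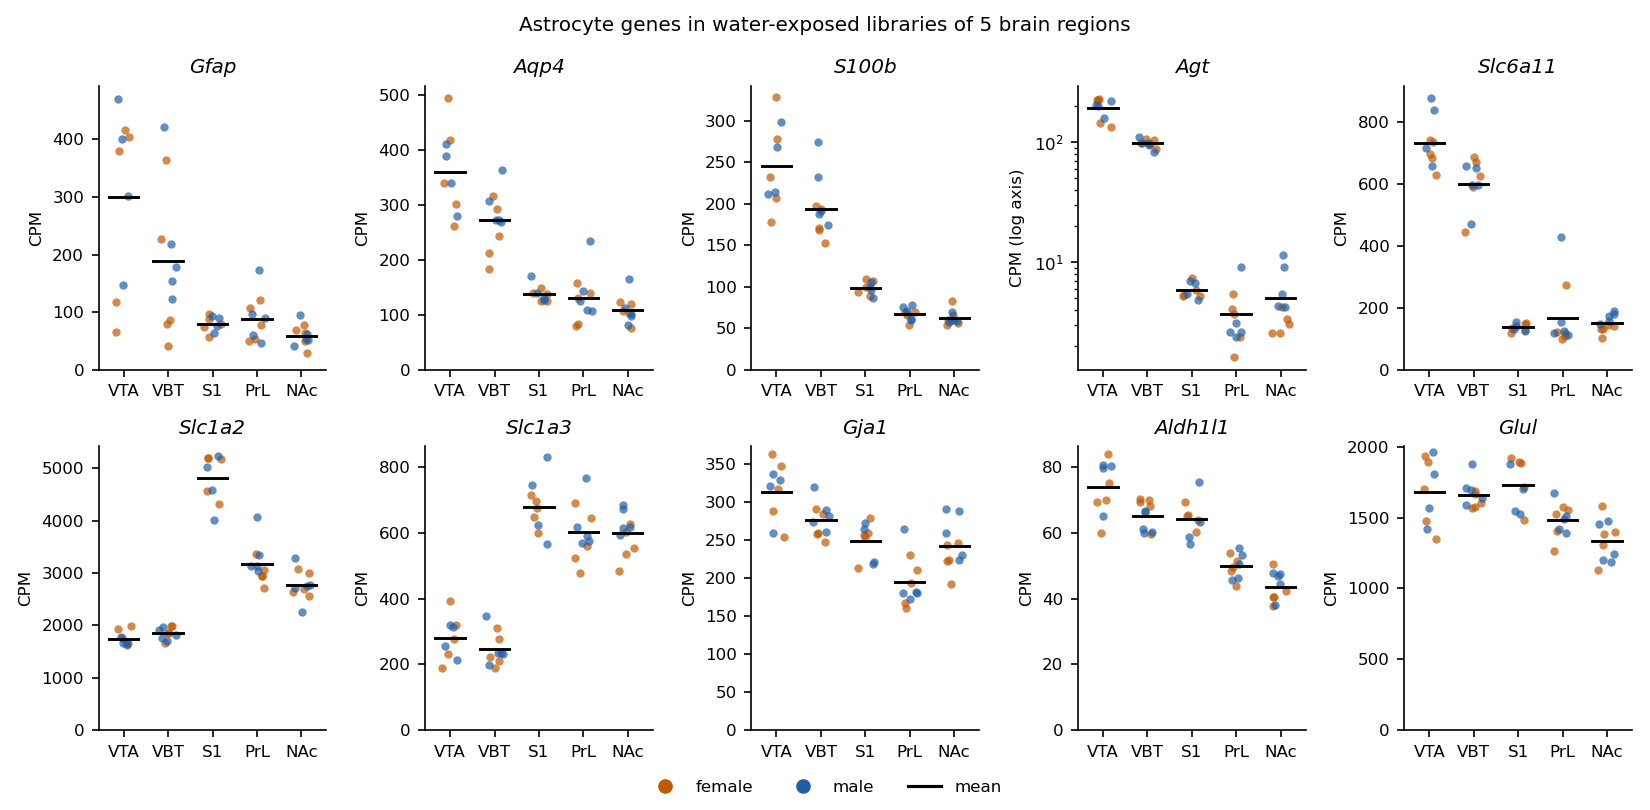
Levels of the 10 genes in the water-exposed libraries of each region, in CPM (log axis for Agt, linear axes from 0 for the others). Each point is a library, orange for females and blue for males, and black lines are means. Agt, Slc6a11, Gfap, S100b and Aqp4 are highest in VTA and VBT, Slc1a2 and Slc1a3 in S1, PrL and NAc.

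Agt separated the regions most. In VTA it was at 195 ± 37.5 CPM (SD, n = 9), with 136 at the lowest, 205 at the median and 231 at the highest. In VBT it was at 98.1 ± 8.26 CPM (n = 10), from 83.1 to 110, so that the water libraries of the 2 regions do not overlap. Its level was 5.88 ± 0.922 CPM in S1 (n = 9), 5.02 ± 2.96 CPM in NAc (n = 10) and 3.70 ± 2.18 CPM in PrL (n = 10), and its highest library outside VTA and VBT reached 11.4 CPM. The lowest count of Agt in a water library was 58, so these low levels are above the floor. VTA exceeded PrL by 5.62 (SE 0.21) on the log2 scale, a 49.1-fold difference (edgeR adjusted p = 1.27e-24), and exceeded VBT by 0.84 (SE 0.17, adjusted p = 6.28e-05). S1 exceeded PrL by 0.66 (adjusted p = 0.00871), whereas S1 and NAc (adjusted p = 0.0766) and PrL and NAc (adjusted p = 0.333) were not told apart. In the fentanyl libraries Agt ran from 90.4 to 237 CPM in VTA and from 79.6 to 128 CPM in VBT, and the 2 regions overlap.

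The other genes of the angiotensin system, a list of 12 with Agt itself, did not all share this order. Of 11 that passed the filter on low counts, 7 were higher and 1 lower in VTA than in S1, a pair in which 67.6% of all genes were called. Agtr2, the type 2 angiotensin receptor, was at 5.16 ± 1.55 CPM in VTA and 0.525 ± 0.223 CPM in S1 (log2 difference 3.23, edgeR adjusted p = 2.50e-13). Mas1, a receptor of a shorter angiotensin peptide, had the opposite order, at 0.782 ± 0.532 CPM in VTA and 18.3 ± 3.40 CPM in PrL (log2 difference -4.64, edgeR adjusted p = 2.17e-15), with 3 counts in its lowest VTA library. Agtr1a, the type 1a receptor, was low everywhere and was 8.10-fold higher in VTA than in VBT (adjusted p = 2.79e-10). Ren1, which encodes renin, had libraries with a count of 0 in all 5 regions.

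The GABA transporter Slc6a11 was at 730 ± 80.6 CPM in VTA (n = 9, 629 to 876) and 599 ± 82.0 CPM in VBT (n = 10, 443 to 686). The remaining regions lay far below, with 137 ± 12.5 CPM in S1 (n = 9), 149 ± 26.6 CPM in NAc (n = 10) and 166 ± 105 CPM in PrL (n = 10). VTA exceeded S1 by 2.33 (SE 0.18) on the log2 scale (edgeR adjusted p = 6.18e-15), and VTA and VBT were not told apart (0.14, SE 0.17, adjusted p = 0.486). The PrL mean is raised by the libraries with olfactory bulb genes, PrL male water 3 at 429 CPM and PrL female water 5 at 275 CPM. The other 8 PrL water libraries lie between 97.7 and 154 CPM. Among S1, PrL and NAc no pair differed, but without these libraries and VBT female water 2 and male water 3, a choice made after seeing the data, PrL was below S1 (S1 minus PrL 0.17, adjusted p = 0.0477) and below NAc (PrL minus NAc -0.22, adjusted p = 0.00557).

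The glutamate transporters ran the other way. Slc1a2 was at 4814 ± 456 CPM in S1 (n = 9, 4006 to 5241), 3178 ± 368 CPM in PrL (n = 10), 2777 ± 292 CPM in NAc (n = 10), 1852 ± 117 CPM in VBT (n = 10) and 1746 ± 131 CPM in VTA (n = 9). The lowest S1 library, at 4006 CPM, lay above all VBT and VTA water libraries, which reached 1996 CPM. All 10 differences between regions were called for Slc1a2, from 0.23 (VBT over VTA, SE 0.07, edgeR adjusted p = 0.00415) to 1.55 on the log2 scale (S1 over VTA). The step from VTA to VBT was the weakest of them: it was not called in the fentanyl libraries (adjusted p = 0.138).

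Slc1a3 was higher in S1, PrL and NAc than in VTA and VBT. It was at 679 ± 80.5 CPM in S1 (n = 9), 603 ± 82.8 CPM in PrL and 599 ± 61.1 CPM in NAc (n = 10 each), against 279 ± 64.0 CPM in VTA (n = 9) and 246 ± 50.6 CPM in VBT (n = 10). The highest VTA library (394 CPM) was below the lowest of S1, PrL and NAc (479 CPM). VBT was 2.67-fold below S1 (log2 difference -1.42, SE 0.10, edgeR adjusted p = 1.17e-16). S1 exceeded NAc by 0.26 (SE 0.10, adjusted p = 0.0230), and VTA and VBT (adjusted p = 0.758), S1 and PrL (0.187) and PrL and NAc (0.430) were not told apart.

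Glutamine synthetase varied least. Glul was at 1728 ± 176 CPM in S1, 1680 ± 234 CPM in VTA, 1662 ± 92.7 CPM in VBT, 1482 ± 115 CPM in PrL and 1336 ± 146 CPM in NAc, 1.29-fold from the highest to the lowest mean. S1, VTA and VBT were not told apart from one another (edgeR adjusted p from 0.161 to 0.951). NAc was below each of the other 4 regions, by 0.24 (PrL, SE 0.07, adjusted p = 0.00419) to 0.45 (VBT, SE 0.07, adjusted p = 2.97e-07) on the log2 scale.

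Of the wider list on glutamate and GABA uptake and glutamine supply, 13 genes were tested and 7 were higher and 2 lower in VTA than in S1 (67.6% of all genes called), with a median log2 difference of 0.41 against 0.046 over all genes. Slc6a9, the glycine transporter GlyT1, was at 189 ± 23.9 CPM in VTA and 27.7 ± 2.43 CPM in S1 (log2 difference 2.69, edgeR adjusted p = 5.23e-20). Abat, the GABA transaminase, was 2.23-fold higher in VTA (adjusted p = 4.80e-19). Neurons also express several of these genes.

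Aqp4 and Gja1, the water channel and the gap junction protein, were both highest in VTA but by different amounts. Aqp4 was at 360 ± 75.4 CPM in VTA (n = 9), 274 ± 51.8 CPM in VBT, 138 ± 14.9 CPM in S1 (n = 9), 131 ± 44.3 CPM in PrL and 109 ± 24.6 CPM in NAc (n = 10 each). The lowest VTA library (261 CPM) was above every water library of S1, PrL and NAc, whose highest was 234 CPM in PrL male water 3. VTA exceeded NAc by 1.71 (SE 0.14, edgeR adjusted p = 6.00e-14), whereas VTA and VBT (adjusted p = 0.121) and S1 and PrL (adjusted p = 0.667) were not told apart. PrL exceeded NAc by 0.34 (adjusted p = 0.0363), and without the libraries of other tissue by 0.17 (adjusted p = 0.296). Gja1 ranged from 313 ± 38.2 CPM in VTA to 194 ± 32.2 CPM in PrL, and VTA exceeded PrL by 0.59 (SE 0.07, adjusted p = 1.20e-09). VTA and VBT (adjusted p = 0.717) and S1 and NAc (adjusted p = 0.173) were not told apart for Gja1.

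Of 14 genes on a list of water, potassium and ion handling, 10 were higher and 2 lower in VTA than in S1 (median log2 difference 0.62), where 67.6% of all genes were called. Kcnj10, the inward rectifier potassium channel Kir4.1, was at 729 ± 52.4 CPM in VBT and 283 ± 49.8 CPM in S1 (log2 difference 1.42, edgeR adjusted p = 4.40e-15), and VTA was below VBT by 0.59 (adjusted p = 1.17e-05). Hepacam, the cell adhesion protein GlialCAM, was higher in VBT than in S1 by 0.95 (SE 0.07, adjusted p = 2.76e-16).

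Gfap was the most variable member in VTA and VBT. In VTA it was at 300 ± 151 CPM (n = 9), with 65.8 at the lowest, 380 at the median and 471 at the highest. In VBT it was at 189 ± 123 CPM (n = 10), from 41.3 to 421 CPM, with the highest in VBT male water 3. The other regions were lower and narrower, at 87.6 ± 39.5 CPM in PrL, 79.8 ± 13.6 CPM in S1 and 59.4 ± 18.9 CPM in NAc, and the VTA and VBT ranges overlap all of them. VTA exceeded NAc by 2.32 (SE 0.34, edgeR adjusted p = 1.25e-07) and VBT exceeded PrL by 1.14 (SE 0.32, adjusted p = 0.00191). VTA and VBT were not told apart (0.56, SE 0.32, adjusted p = 0.153), but without the 4 libraries of other tissue the difference was 0.99 (adjusted p = 0.00708). PrL, S1 and NAc did not differ from one another (adjusted p from 0.0976 to 0.791).

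S100b was at 246 ± 49.4 CPM in VTA (n = 9, 178 to 328) and 194 ± 35.5 CPM in VBT (n = 10, 152 to 275), and no water library of S1, PrL or NAc exceeded 109 CPM. Its levels there were 98.3 ± 7.97, 67.3 ± 7.26 and 62.5 ± 8.60 CPM. VTA exceeded NAc by 1.98 (SE 0.10, edgeR adjusted p = 3.05e-21), and PrL and NAc (adjusted p = 0.0786) were not told apart. Between VTA and VBT the S100b difference was 0.21 (edgeR adjusted p = 0.0585) and lay near the threshold. It was called without the 4 libraries of other tissue (0.26, adjusted p = 0.0247), with the replicate block (0.23, adjusted p = 0.0406) and without any 1 of 7 libraries: VTA female water 2 or 3, VTA male water 5, VBT female water 1, VBT male water 3 or 4, or NAc female water 2. Aldh1l1 was highest in VTA at 73.8 ± 8.18 CPM, followed by VBT at 65.2 ± 4.45 CPM, S1 at 64.3 ± 5.72 CPM, PrL at 49.8 ± 3.81 CPM and NAc at 43.6 ± 4.39 CPM. VTA, VBT and S1 were not told apart for Aldh1l1 (adjusted p from 0.0699 to 0.566), PrL was below S1 by 0.35 (SE 0.06, adjusted p = 3.58e-06) and NAc below PrL by 0.28 (SE 0.06, adjusted p = 3.63e-05).

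The markers of other cells moved with region too. The 8 oligodendrocyte markers were each higher in VTA and in VBT than in S1 (8 of 8 called, median log2 difference 2.36 and 2.87). Of 7 microglia markers, 6 were lower and none higher in VTA than in S1. Of all genes, 67.6% were called between VTA and S1 and 68.0% between VBT and S1. The part of these cells in the regional levels was not tested.

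By count, the members called in the pairs of regions were as follows, each beside the share of all genes called in that pair. Between VTA and VBT, 2 of 10 were called (Agt higher and Slc1a2 lower in VTA) against 52.5% of genes. VTA against S1 gave 8 of 10 (67.6% of genes), against PrL 9 of 10 (66.5%) and against NAc 10 of 10 (64.8%). VBT gave 8 of 10 against S1 (68.0%), 10 of 10 against PrL (68.4%) and 10 of 10 against NAc (67.8%). Among the other regions, 6 of 10 were called between S1 and PrL (37.3%), 6 of 10 between S1 and NAc (53.3%) and 5 of 10 between PrL and NAc (50.3%). In 9 of these 10 pairs over 50% of all genes were called, so the counts alone say little about the members. The median log2 difference of the members was 1.23 between VTA and NAc, against 0.029 over all genes, and 0.09 between VTA and VBT, against 0.016. In the fentanyl libraries, 7 of 10 were called between VTA and VBT, against 61.9% of genes: Gfap (1.17), Aqp4 (0.73), Slc1a3 (0.23), Gja1 (0.16) and Agt (0.67) higher in VTA, and Aldh1l1 (-0.16) and Glul (-0.24) lower.

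Compared per kilobase of exon, the ranking of the members among themselves also changed with region. In VTA water libraries Glul led with 505 CPM per kilobase, followed by S100b (166), Slc6a11 (145), Slc1a2 (133), Agt (103), Gfap (71.2) and Aqp4 (57.7). Slc1a3 (32.7), Gja1 (30.5) and Aldh1l1 (16.3) came last there. In S1, Glul (520 CPM per kilobase) and Slc1a2 (367) stood far above Slc1a3 (79.5) and S100b (66.2), the next were Slc6a11 (27.1), Gja1 (24.3), Aqp4 (22.1), Gfap (18.9) and Aldh1l1 (14.2), and Agt was last with 3.11. These are levels over all exons of a gene and not over the isoform in use.

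Other astrocyte genes were higher in VTA than in S1 or the reverse. Sparc, a matrix protein of glia, was at 1302 ± 116 CPM in VTA, 887 ± 89.1 in VBT and 172 ± 18.0 in S1 (VTA over S1, log2 difference 2.84, edgeR adjusted p = 3.96e-27). Chrdl1, a secreted BMP antagonist, was at 2.23 ± 0.758 CPM in VTA and 40.0 ± 8.94 in S1 (log2 difference -4.28, adjusted p = 1.71e-22). Lhx2, a transcription factor of the forebrain, was at 0.399 ± 0.277 CPM in VTA and 55.5 ± 8.49 in S1, with 2 counts in its lowest VTA library. Serpina3n, a protease inhibitor induced in reactive astrocytes, was at 17.4 ± 2.57 CPM in VTA, 7.68 ± 1.28 in PrL, 5.95 ± 1.11 in VBT and 4.67 ± 0.783 in S1 (VTA over S1, log2 difference 1.80, adjusted p = 7.37e-19). On the list of 41 further astrocyte markers, 23 were higher and 12 lower in VTA than in S1, and on the list of identity and transcription genes 6 were higher and 5 lower of 16. Of all genes, 67.6% were called in this pair, either way.

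Across the 98 libraries, after centring each on its group mean of log2(CPM + 1), the members did not form a single block. The closest pairs were Aqp4 and Gja1 (Pearson r = 0.83), Aqp4 and Gfap (0.78), Gja1 and Slc1a3 (0.73), Aqp4 and Slc1a3 (0.72) and Glul and S100b (0.71). The lowest values were those of Agt and Slc1a2 (-0.30) and of Gfap and S100b (-0.22). These are descriptions over libraries that differ in depth and dissection. Among 15551 genes with a mean of at least 1 CPM, the non-members most like each gene were C4b, Vim and Scara3 for Gfap (r = 0.88, 0.81 and 0.80) and Ednrb, Slc7a2 and Adamts9 for Aqp4 (0.78, 0.78 and 0.74). For Slc1a3 they were Plpp3, Mmd2 and Ednrb (0.82, 0.78 and 0.77), for Gja1 Ednrb, Plpp3 and Asrgl1 (0.75, 0.74 and 0.73), and for Slc1a2 Prex2, Ptar1 and Dpp8 (0.74, 0.70 and 0.68). For Agt they were Sparc, Igsf1 and Cyp4f17 (0.81, 0.71 and 0.69), and for Slc6a11 Csdc2, Lrig1 and Pcbp3 (0.85, 0.81 and 0.76). Glul was closest to Aldoc, Htra1 and Rassf2 (0.75, 0.74 and 0.71), S100b to Car2, Ankrd40 and Fth1 (0.75, 0.74 and 0.73), and Aldh1l1 to Aldh7a1, Sfxn5 and Cst3 (0.69, 0.67 and 0.66).

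The way the members varied together was not the same in VTA and VBT. Within VTA, Gfap went with Agt (r = 0.91) and Aqp4 (0.90) and against S100b (-0.84) and Glul (-0.71) over 19 libraries. Within VBT, Gfap went with Aqp4 (r = 0.82) and S100b (0.79) and against Slc6a11 (-0.85) over 20 libraries. These values too are given as descriptions.

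The summed level of 8 oligodendrocyte markers (among them Mbp, Mog and Mag) traces how much myelin RNA a library holds, and Gfap, Aqp4, Slc1a3 and Gja1 followed it with different signs in VTA and VBT. In VTA (n = 19), the log2 level of Gfap fell as the log2 marker sum rose (Pearson r = -0.70, Spearman rho = -0.76, permutation p = 0.000900 and 0.000230, adjusted 0.00375 and 0.00162 over 50 relations). In VBT (n = 20) it rose with the sum (r = 0.91, rho = 0.87, permutation p = 1e-05, the smallest the resamples can give, and 2e-05, adjusted 0.000125 and 0.000167). Aqp4 did likewise, with r = -0.80 and rho = -0.82 in VTA and r = 0.78 and rho = 0.73 in VBT (permutation, all 4 adjusted p at or under 0.00267). Slc1a3 had r = -0.79 in VTA and 0.72 in VBT (permutation adjusted p = 0.000500 and 0.00218), and Gja1 -0.87 and 0.62 (adjusted p = 0.000125 and 0.0133). S100b rose with the sum in both, with r = 0.89 in VTA and 0.91 in VBT. Without the 2 libraries farthest from the median sum, r was -0.68 in VTA and 0.89 in VBT for Gfap, -0.75 and 0.67 for Aqp4, -0.74 and 0.52 for Slc1a3, -0.81 and 0.34 for Gja1 and 0.91 and 0.83 for S100b. Centred on the sex and exposure groups, r was -0.81 and 0.91 for Gfap. Whether the relation differs between the regions was not tested.

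Slc6a11 fell as the marker sum rose in VBT (r = -0.83, rho = -0.68, permutation adjusted p = 0.000167 and 0.00591, n = 20). Agt fell with the sum in VTA (r = -0.61, rho = -0.63, permutation adjusted p = 0.0215 and 0.0183). In S1, the relation of Gfap (r = 0.62) rests on 2 libraries, since r was 0.24 without them. Of the 50 relations tested by r, 16 had an adjusted p under 0.05. Those not named so far all rose with the sum. They are Glul in VTA (r = 0.73, permutation adjusted p = 0.00160), S100b in S1 (r = 0.80, adjusted p = 0.000286) and Slc6a11 in PrL (r = 0.60, adjusted p = 0.0318, but 0.109 by rho). Without the 2 libraries farthest from the median sum, r was -0.73 for Slc6a11 in VBT and -0.55 for Agt in VTA.

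**Figure D2:**
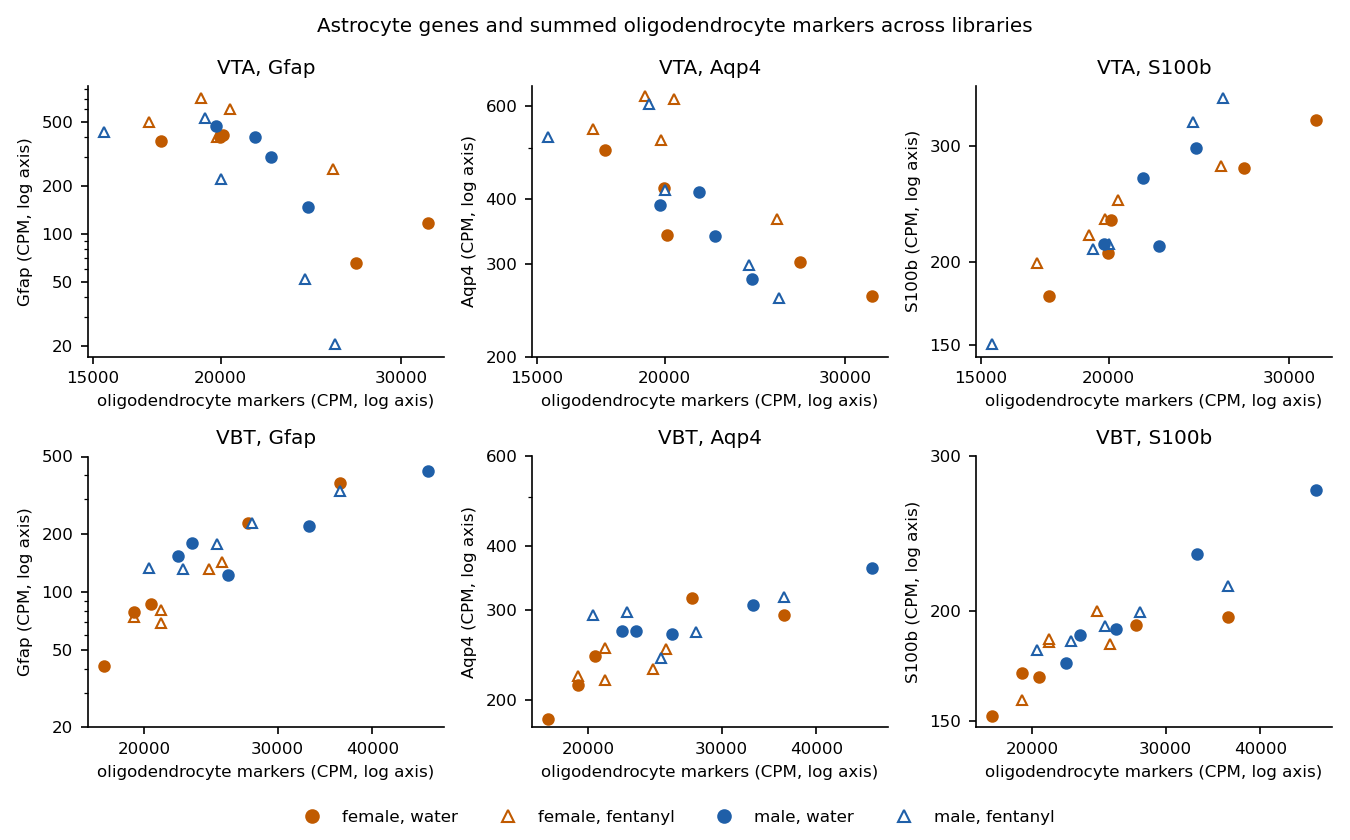
Gfap, Aqp4 and S100b against the summed oligodendrocyte markers in each VTA library (top) and VBT library (bottom), all in CPM on log axes. Filled circles are water and open triangles fentanyl, orange for females and blue for males. Gfap falls across VTA libraries (r = -0.70) and rises across VBT libraries (r = 0.91), and S100b rises in both.

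For exposure, fentanyl was compared with water within each region, in females, in males, as the average of the sexes and as the difference between the sexes (edgeR's quasi-likelihood test, adjusted over all genes of the region). None of the 10 members was called in any of these 20 comparisons or in the 5 comparisons of males with females in water. The largest fitted change of any member was 0.83 on the log2 scale within a sex (Gfap, VTA females).

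**Figure D3:**
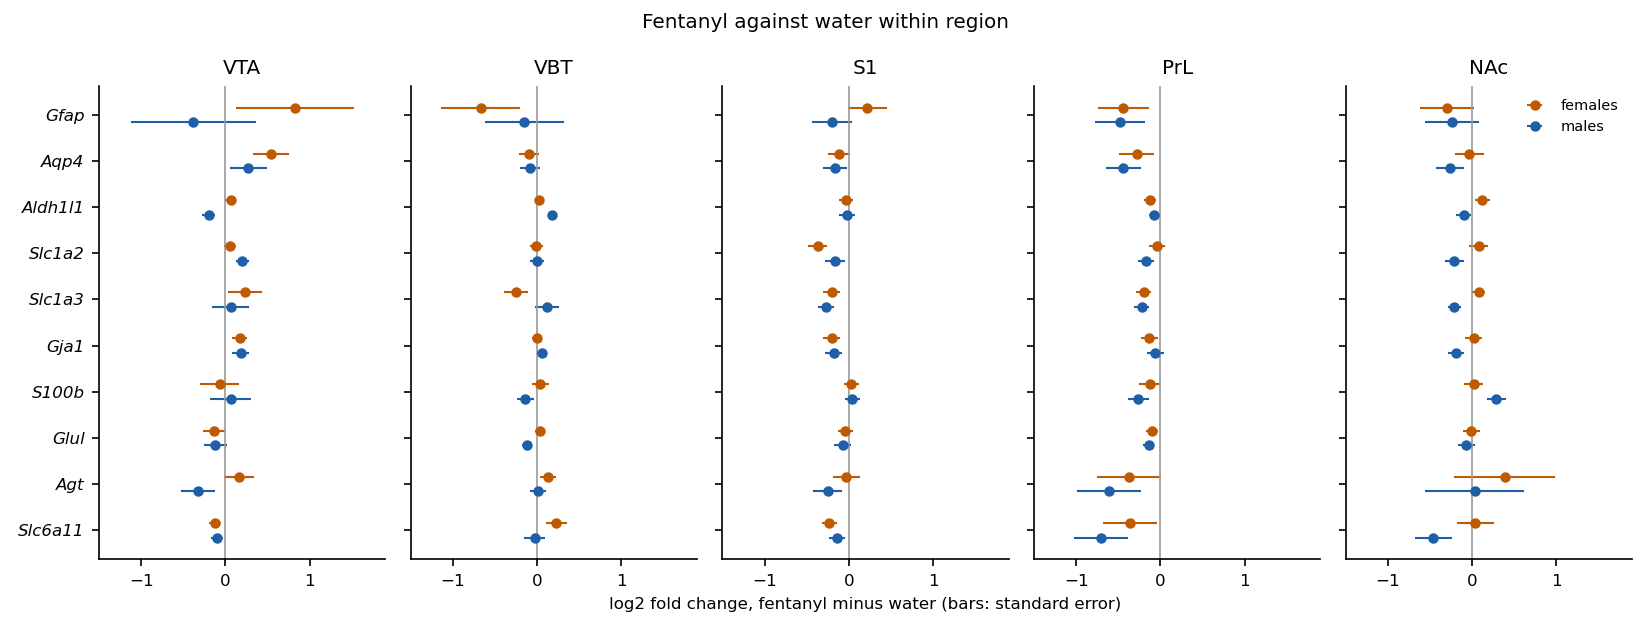
Fitted log2 fold change of fentanyl against water for each gene (rows) in each region (panels), orange for females and blue for males, with bars of 1 standard error. No gene was called. All 10 lie at or below 0 in PrL in both sexes, and Gfap and Agt have the widest bars in VTA and NAc.

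In VTA, Aqp4, Slc1a2 and Aldh1l1 had the smallest p-values, and none passed the adjusted test. Aqp4 was at 516, 543, 627, 618 and 366 CPM in the exposed females and at 303, 496, 418, 341 and 261 CPM in the water females. It was at 259, 606, 415, 299 and 524 CPM in the exposed males and 412, 280, 388 and 340 CPM in the water males. The groups overlap in both sexes. Averaged over the sexes, Aqp4 differed by 0.41 (SE 0.15, edgeR adjusted p = 0.0628), and in females by 0.54 (SE 0.21, adjusted p = 0.319).

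The glutamate transporter Slc1a2 separated the VTA males without overlap. It was at 1849, 1871, 1891, 1921 and 1955 CPM in exposed males and at 1666, 1686, 1637 and 1783 CPM in water males. The difference was 0.20 (SE 0.08, edgeR adjusted p = 0.0637). Aldh1l1 in VTA males went the other way, at 57.9 to 73.8 CPM against 65.1 to 80.7 CPM (-0.20, SE 0.08, adjusted p = 0.0677), and its effect in males minus that in females was -0.25 (SE 0.10, adjusted p = 0.420).

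Gfap varied most among the VTA libraries. Exposed females had 405, 499, 702, 599 and 254 CPM and water females 65.8, 380, 405, 416 and 117 CPM, while exposed males ran from 20.4 to 530 CPM and water males from 146 to 471 CPM. The log2 difference was 0.83 (SE 0.70, edgeR adjusted p = 0.634) in females and -0.38 (SE 0.74, adjusted p = 0.767) in males. The libraries with the least Gfap, exposed males 1 and 4 and water females 1 and 5, also had the least Agt (90.4 to 146 CPM, against 158 to 237 CPM in the other VTA libraries). Their marker sums for oligodendrocytes were 24174 to 31835 CPM, which overlap the 15392 to 25741 CPM of the others.

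By count, 0 of 10 members were called in VTA females (0% of 19822 genes), 0 of 10 in males (22.0%), 0 of 10 in the average (23.1%) and 0 of 10 in the difference between sexes (0%). At an unadjusted p under 0.05 there were 1, 2, 4 and 1 members, against 12.7%, 34.7%, 35.4% and 11.4% of all genes. The Wald test of DESeq2 called Slc1a2 in males (adjusted p = 0.0248) and Aqp4 and Gja1 in the average (0.0153 and 0.0402). Leaving out a single library (female fentanyl 5, female water 1, 2 or 4, male fentanyl 1, 2 or 4, or male water 2) called up to 2 members in males and up to 3 in the average, from among Aldh1l1, Aqp4, Gja1, Slc1a2 and Slc6a11. The shares of all genes called by DESeq2 and in these leave-one-out fits are not given here. With the reported settings they were 22.0% in males and 23.1% in the average, so these member counts alone say little. The VTA libraries also differed in how their counts depend on the GC content of a gene. Spearman's rho between GC content and the log2 ratio to the region's mean ran from 0.608 to 0.721 in the water males and from -0.580 to -0.139 in the exposed males, so in males this trend and exposure cannot be told apart. In females it ran from -0.641 to 0.044 in exposed libraries and was 0.736 and 0.607 in water females 4 and 5, against -0.382 to -0.277 in the other water females. Among the VTA libraries with a rho under 0.3, chosen after seeing the data, Aqp4 in females was at 0.39 (SE 0.26, edgeR adjusted p = 0.999), against 0.54 with all. With offsets for GC content, the male difference was 0.07 for Slc1a2 and -0.02 for Aldh1l1 (adjusted p = 0.561 and 0.897).

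Other astrocyte genes were called in VTA males, where 22.0% of all genes were. Of 41 further markers, 5 rose and 9 fell. Mt3, a metallothionein, fell, with a log2 fold change of -1.12 (edgeR adjusted p = 0.00259, SE 0.20), and Cldn10, a claudin, rose by 0.42 (SE 0.08, adjusted p = 0.00249). On the list of water, potassium and ion handling, 4 rose and 2 fell of 14, among them Kcnj16, a potassium channel subunit, which rose (0.28, adjusted p = 0.0118). Notch1 (-0.34, adjusted p = 0.00393) and Fgfr3 (-0.19, adjusted p = 0.0184) fell on the identity list, and Stat3 fell by 0.15 (adjusted p = 0.0436) on the list of intermediate filament and reactive genes. Atp6ap2, the prorenin receptor, rose by 0.26 (adjusted p = 0.00656). In VTA males the GC trend and exposure cannot be told apart for these genes either, and no values with GC offsets are given for them. Of the choroid plexus markers, 2 of 5 were lower in exposed males, with sums of 9.76 to 1033 CPM in water males and 12.2 to 25.0 CPM in exposed males, and their part in these results was not tested.

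In VBT, no member was called. Aldh1l1 in males had the smallest p, at 72.9, 75.0, 65.6, 72.9 and 74.0 CPM in exposed and 60.3, 60.0, 66.4, 61.1 and 66.7 CPM in water males. The groups overlap by a single exposed library, and the difference was 0.18 (SE 0.05, edgeR adjusted p = 0.271). Slc6a11 in females was at 696 to 725 CPM with exposure and at 443 to 686 CPM with water, without overlap, the lowest being VBT female water 2 (0.23, SE 0.12, edgeR adjusted p = 0.702), and without that library the difference was 0.12 (SE 0.11, adjusted p = 0.985). Gfap in females went from -0.67 to -0.15 without it. In VBT the counts were 0 of 10 in females (0% of 18923 genes), 0 of 10 in males (0%), 0 of 10 in the average (0%) and 0 of 10 in the difference between sexes (0%), with 0, 1, 1 and 1 members at an unadjusted p under 0.05 (7.86%, 8.70%, 8.49% and 8.03% of all genes). Slc1a3 had the smallest p in females (-0.25, SE 0.14, edgeR adjusted p = 0.700), and Aldh1l1 in the average (0.10, SE 0.03, adjusted p = 0.507) and in the difference between sexes (0.16, SE 0.07, adjusted p = 0.564). DESeq2 called no member in these VBT comparisons.

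In S1, the glutamate transporters Slc1a2 and Slc1a3 had the smallest p-values, with lower fitted levels in the exposed mice, and neither passed the adjusted test. Slc1a2 was at 3431, 3289, 4613, 4254 and 3493 CPM in exposed females against 4323, 5186, 5189, 5202 and 4558 CPM in water females. In males it was at 4620, 4410, 3215, 4313 and 4186 CPM against 4006, 4594, 5241 and 5024 CPM. Both sexes overlap, with 1 exposed female (4613 CPM) above the lowest water female (4323 CPM). The difference was -0.37 (SE 0.11, edgeR adjusted p = 0.134) in females and -0.26 (SE 0.08, adjusted p = 0.108) in the average. Spearman's rho between exon length and the log2 ratio to the region's mean ran from -0.459 to 0.0221 in the exposed and from 0.0478 to 0.356 in the water females, and Slc1a2 is the member with the most exonic bases. With offsets for exon length, its difference was -0.26 in females (adjusted p = 0.298) and -0.20 in the average (adjusted p = 0.186).

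Slc1a3 in S1 was at 464 to 687 CPM in exposed and 601 to 715 CPM in water females, and at 488 to 642 CPM in exposed and 568 to 832 CPM in water males. Its average difference was -0.24 (SE 0.07, edgeR adjusted p = 0.108). Gja1 (-0.19, adjusted p = 0.190) and Slc6a11 (-0.18, adjusted p = 0.179) had values of the same sign, and S100b (0.03) and Gfap (0.01) did not. DESeq2's Wald test called Slc1a2 in females (adjusted p = 0.0351) and Slc1a2 and Slc1a3 in the average (0.0315 and 0.0390). By edgeR 0 of 10 were called in S1 females (0.142% of 19748 genes), 0 of 10 in males (0%), 0 of 10 in the average (1.03%) and 0 of 10 in the difference between sexes (0%), with 2, 1, 4 and 0 at an unadjusted p under 0.05 (13.9%, 7.15%, 15.8% and 4.14% of all genes). Slc1a3 had the smallest p in males (-0.27, SE 0.10, edgeR adjusted p = 0.651) and Slc1a2 in the difference between sexes (0.21, SE 0.16, adjusted p = 0.957). The median member difference in the average was -0.14, against 0.002 over all genes.

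S1 exposed female 5 stands apart by its myelin. Its oligodendrocyte marker sum was 14106 CPM, against 2407 to 7912 CPM in the other S1 libraries, and its Gfap was 168 CPM, against 52.9 to 91.3 CPM in the other exposed females. Without it, the Gfap difference in females went from 0.22 to -0.08, Slc1a2 was at -0.33 (SE 0.12, edgeR adjusted p = 0.232), and all 10 members had negative values in females, with none called. Among the other astrocyte genes in S1, Mt3 rose in the average of the sexes (0.55, SE 0.12, adjusted p = 0.0416), a call lost with the share of reads outside exons as a covariate (0.52, SE 0.14, adjusted p = 0.106), and endothelial markers had 1 of 6 lower. Of all genes, 1.03% were called in the S1 average.

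In PrL, all 10 members had lower fitted levels with exposure in females and in males, and none was called. Slc1a3 had the smallest p. It was at 474, 454, 508, 547 and 492 CPM in exposed and 525, 646, 479, 561 and 691 CPM in water females, and at 532, 471, 473, 560 and 595 CPM in exposed and 571, 591, 767, 577 and 619 CPM in water males. The groups overlap in both sexes, and the average difference was -0.21 (SE 0.06, edgeR adjusted p = 0.102). Slc6a11 had the largest difference, -0.53 (SE 0.23, adjusted p = 0.221), followed by Agt (-0.49, SE 0.27, adjusted p = 0.332), Gfap (-0.46, SE 0.21, adjusted p = 0.251) and Aqp4 (-0.36, SE 0.15, adjusted p = 0.192).

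These PrL values rest in part on the libraries with olfactory bulb genes, both of which are water libraries. The 3 olfactory bulb markers tested had a median difference of -2.81, and their sums ran from 4.71 to 324 CPM in water and from 4.17 to 8.63 CPM in exposed libraries. Without PrL male water 3 and PrL female water 5, the average difference of Slc6a11 was -0.09, of Agt -0.21, of Gfap -0.21 and of Aqp4 -0.19. Slc1a3 was then at -0.15 (SE 0.06, edgeR adjusted p = 0.243) and Slc1a2 at -0.13 (SE 0.06, adjusted p = 0.361). Without them the fitted value was negative for 10 of 10 members in females and in the average (median -0.14, against -0.20 with them) and for 9 of 10 in males, Gja1 being positive. The share of reads outside exons also moved with exposure in PrL, at 9.48% to 11.2% in exposed and 11.5% to 13.3% in water females and at 11.2% ± 0.706 in exposed and 13.0% ± 0.738 in water males (SD, n = 5 each). With this share as a covariate, the average difference of Slc1a3 was -0.12 (edgeR adjusted p = 0.881). Exposed and water females do not overlap in this share, so it and exposure cannot be told apart there.

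Counted by edgeR, 0 of 10 members were called in PrL females (0.0210% of 19074 genes), 0 of 10 in males (0%), 0 of 10 in the average (0.697%) and 0 of 10 in the difference between sexes (0%), with 1, 4, 5 and 0 at an unadjusted p under 0.05 (1817, 2284, 3638 and 494 of the 19074 genes). Slc1a3 was at -0.20 in females and -0.22 in males (SE 0.09 each, edgeR adjusted p = 0.509 and 0.371), and Slc1a2 had the smallest p in the difference between sexes (-0.13, SE 0.13, adjusted p = 0.999). DESeq2 called Slc1a3 in the average (adjusted p = 0.0480). Outside the members, Zbtb20, a transcription factor of astrocyte development, fell in the average (-0.61, SE 0.13, edgeR adjusted p = 0.0440) and Atp6ap2 rose (0.22, SE 0.04, adjusted p = 0.0225). With the share of reads outside exons as a covariate, 0 genes were called in this average. Neither call is kept (Zbtb20 -0.35, SE 0.25, edgeR adjusted p = 0.814, and Atp6ap2 0.11, SE 0.07, adjusted p = 0.799). Because this share moved with exposure in PrL, such a fit cannot tell the 2 apart. The lost calls do not settle which of them the values follow.

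In NAc, males and females had values of opposite sign for several members. Slc6a11 was at 92.7, 104, 102, 69.5 and 243 CPM in exposed males and 158, 181, 189, 148 and 172 CPM in water males. Of the 5 exposed males 4 lie below all water males, and exposed male 5 lies above them all. In females it was at 134, 130, 119, 144 and 139 CPM with exposure and 130, 142, 101, 143 and 130 CPM with water. With all libraries, the male difference was -0.46 (SE 0.22, edgeR adjusted p = 0.288).

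NAc exposed male 5 also had the highest Agt of all NAc libraries, 24.3 CPM against 1.69 to 3.80 CPM in the other exposed males, and a Gfap of 100 CPM against 34.5 to 48.5 CPM. Each library was left out in turn, and this one was singled out after its values, Slc6a11 among them, were seen. Without it, the Slc6a11 value in males passed the threshold (log2 fold change -0.83, SE 0.12, edgeR adjusted p = 0.00216), with 1 of 10 members and 4.12% of genes called. The average of the sexes was then -0.40 (adjusted p = 0.0496, 1 of 10 members and 0.279% of genes called) and the male effect minus the female effect -0.86 (adjusted p = 0.0236, 1 of 10 members and 0.841% of genes called). Agt went from 0.03 to -1.20 in males (SE 0.39, adjusted p = 0.0811). The Slc6a11 call depends on leaving out a library whose own Slc6a11 stands apart, so these values are a description and no independent test. Its striatal marker sum was 1645 CPM, the lowest of the exposed NAc libraries, and the part of the dissection in its values was not tested.

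**Figure D4:**
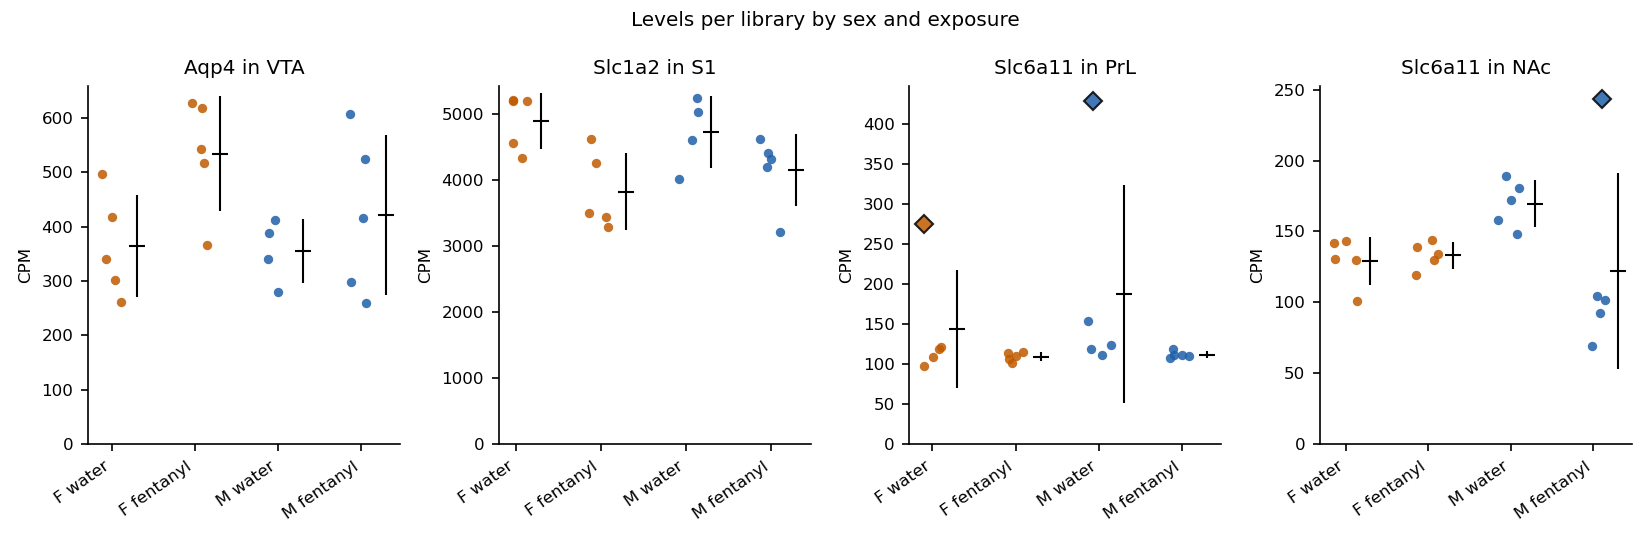
Levels in CPM of each library by sex (F, M) and exposure for Aqp4 in VTA, Slc1a2 in S1 and Slc6a11 in PrL and NAc, with means and SD beside the points. Diamonds mark PrL female water 5 and PrL male water 3, the libraries with olfactory bulb genes, and NAc male fentanyl 5. Of the other NAc males, the 4 exposed libraries lie at 69.5 to 104 CPM and the 5 water libraries at 148 to 189 CPM.

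S100b in NAc males was at 67.5, 84.6, 67.9, 76.6 and 70.0 CPM with exposure and 59.9, 70.1, 59.2, 59.4 and 57.3 CPM with water. Only the highest water library overlaps the exposed ones (0.29, SE 0.11, edgeR adjusted p = 0.150). Slc1a3 was at 480 to 626 CPM in exposed and 595 to 685 CPM in water males (-0.21, SE 0.08, adjusted p = 0.174), and its male effect minus its female effect was -0.30 (SE 0.12, adjusted p = 0.221). With all libraries, 0 of 10 members were called in NAc females (0% of 19480 genes), 0 of 10 in males (0.662%), 0 of 10 in the average (0%) and 0 of 10 in the difference between sexes (0%), with 0, 2, 1 and 1 at an unadjusted p under 0.05 (1760, 3437, 2343 and 2966 of the 19480 genes). Aldh1l1 had the smallest p in females (0.12, SE 0.09, edgeR adjusted p = 0.674) and S100b in the average (0.16, SE 0.08, adjusted p = 0.413). DESeq2 called none of the members there. Notch2 was the other astrocyte gene called in NAc males (-0.55, SE 0.10, adjusted p = 0.0284). The summed striatal neuron markers ran from 1689 to 2616 CPM in water and from 1645 to 3798 CPM in exposed males, and from 1096 to 3014 CPM in water and 2198 to 3251 CPM in exposed females. The cortical projection neuron sums ran from 360 to 700 CPM in water and 86.9 to 758 CPM in exposed males, and from 247 to 1373 CPM in water and 53.7 to 821 CPM in exposed females. None of these markers was called, and the part of such tissue in the NAc levels and differences was not tested.

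Between males and females of the water groups no member was called either: 0 of 10 in VTA (0.0504% of genes), VBT (0.0898%), S1 (0.0557%), PrL (0.0472%) and NAc (0.0513%), by edgeR and by DESeq2. At an unadjusted p under 0.05 there were 2 members in VBT (7.82% of all genes) and 0 in VTA (10.8%), S1 (3.98%), PrL (3.40%) and NAc (10.7%). The smallest p-values were those of Slc6a11 in VTA (males minus females 0.13), S100b in VBT (0.26), Glul in S1 (-0.10), Slc1a2 in PrL (0.17) and Slc1a3 in NAc (0.15), with edgeR adjusted p from 0.488 to 0.999. Without VBT male water 3, S100b in VBT was at 0.16 (adjusted p = 0.885). The largest fitted sex difference was that of Agt in NAc, 3.16 ± 0.714 CPM in females and 6.89 ± 3.23 CPM in males (n = 5 each, log2 difference 1.09, SE 0.60, edgeR adjusted p = 0.530). In PrL all 10 members were fitted higher in males, and in this group PrL male water 3 is the library with most olfactory bulb RNA. Without it and PrL female water 5, 8 of 10 were.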

How the data were processed

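RNA (10 ng per library) from tissue punches was made into SMART-Seq v4 libraries, per the labels' protocols. The authors deposited raw counts per gene for each of 99 libraries, unnormalized, made with HTSeq on GRCm38, per the submitters' processing notes. The aligner, the annotation release and the strand setting are not given in the sources used here. The 5 lines of unassigned reads were left out of library sizes; reads outside exons were 9.48% to 17.0% of a library. Symbols, positions, exon lengths and GC content came from GENCODE M21 (55154 of 55335 identifiers matched), and promoters from RefSeq (GRCm38.p6), which gave 9 of the 10 members.

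CPM scale a gene's counts to a common total over all genes and were computed here. Tests were edgeR 4.0.16's quasi-likelihood F-test (R 4.3.3, limma 3.58.1; filterByExpr, TMM, robust) in 1 fit per region of its 4 sex and exposure groups, and 1 fit of the 10 region and sex groups of water libraries. Standard errors are the log2 fold change divided by the square root of F. P-values were adjusted over all genes by the Benjamini-Hochberg method and called under 0.05. VTA male water 3 was left out for detecting under 10000 genes. Correlations used 100000 permutations (scipy 1.17.1). The fits were tested on simulated data. These had 1 dispersion for all genes and no GC trend, length trend or mixed tissue, so the test does not cover those features.

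All members are given. In each exposure or sex comparison the called members are named, or else the member with the smallest p, with others added after their values were seen. From each astrocyte list the called genes with the smallest p are named, up to 2 in a comparison; some list genes are not reported here. The members and lists were chosen with earlier results of these data known. Alternatives were DESeq2 1.42.0 (size factors and Wald test), other filters, GC and exon length offsets, a covariate for reads outside exons, a replicate block, the fentanyl libraries, and libraries left out. The labels do not say what a shared replicate number marks, and the numbers were not taken to pair samples, since not every same-numbered pair had a correlation of deviations over 0.1: in VTA females, 3 of 5 pairs of fentanyl and water did, and in PrL and NAc males 0 of 5. Between regions, 3 of 19 (VTA and NAc) to 13 of 19 (S1 and PrL) did, so a shared animal cannot be told from these values.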

Additional observations from a re-analysis of the deposited data

Results flagged for a closer look

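In groups of 4 or 5 libraries, 200 groups and genes were tested for a single library far from the others (Dixon's test at 95%), and 18 were found, where chance gives about 10, or 1 in 20. The genes share libraries, so these tests are not independent, and the excess was not tested. PrL male water 3 gave 4 of them and NAc male fentanyl 5 gave 3.

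In PrL male water 3, the library with most olfactory bulb RNA, Slc6a11 was at 429 CPM (others of its group 111 to 154), Slc1a3 at 767 CPM (571 to 619), Gja1 at 264 CPM (173 to 181) and Agt at 9.07 CPM (2.39 to 3.09). In PrL female water 5 Slc6a11 was at 275 CPM (97.7 to 121). In PrL female water 3 S100b was at 53.7 CPM (66.1 to 69.9).

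In NAc male fentanyl 5, Slc6a11 was at 243 CPM (69.5 to 104), Agt at 24.3 CPM (1.69 to 3.80) and Gfap at 100 CPM (34.5 to 48.5). In NAc female fentanyl 2 Slc1a2 was at 3446 CPM (2802 to 2900), and in NAc male water 2 S100b was at 70.1 CPM (57.3 to 59.9).

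In VBT male water 3 Slc1a3 was at 346 CPM (198 to 236). In VBT male fentanyl 3 Aldh1l1 was at 65.6 CPM (72.9 to 75.0) and Glul at 1720 CPM (1520 to 1574). In VBT female water 4 Aldh1l1 was at 59.5 CPM (68.2 to 70.3), and in VBT female fentanyl 2 Glul was at 1913 CPM (1573 to 1655). In VTA male water 2 Aldh1l1 was at 65.1 CPM (79.7 to 80.7), and in S1 female fentanyl 2 Glul was at 1519 CPM (1753 to 1814).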

How the results depend on the processing

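The 0 members called in the exposure comparisons became, by DESeq2's Wald test, 1 in VTA males, 2 in the VTA average, 1 in S1 females, 2 in the S1 average and 1 in the PrL average. A minimum mean of 50 counts gave 1 in VTA males (Slc1a2, adjusted p = 0.0487). With each library's share of reads outside exons as a covariate, 3 were called in VTA males (Slc1a2, Gja1 and Glul) and 3 in the VTA average (Aqp4, Gja1 and Glul), where 5359 and 5705 of 19822 genes were called. Leaving out 1 library gave 0 to 2 in VTA males and 0 to 3 in the VTA average, and 0 to 1 in NAc males, the NAc average and the NAc difference between sexes. The VTA counts moved without female fentanyl 5, female water 1, 2 or 4, male fentanyl 1, 2 or 4, or male water 2, and the NAc counts without male fentanyl 5. For VTA, the shares of all genes called by DESeq2, with the mean of 50 counts and with 1 library left out are not given here. The replicate block left all 25 exposure and sex counts at 0 and gave 3 in place of 2 between VTA and VBT (S100b added). Counts over all genes moved more. DESeq2 called 406 in place of 28 genes in S1 females, 645 in place of 203 in the S1 average, 778 in place of 133 in the PrL average and 920 in place of 129 in NAc males. GC offsets gave 846 in place of 4355 in VTA males and 960 in place of 4580 in the VTA average, 368 in the PrL average and 366 in NAc males. The covariate gave 1 in the S1 average, 0 in the PrL average and 316 in NAc males, and the replicate block 112, 89 and 2.

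Between VTA and VBT, 4 were called without the libraries of other tissue (Gfap and S100b added, an alternative chosen after seeing the data) and 7 in the fentanyl libraries. Between PrL and NAc, 3 were called with VTA male water 3 kept. Leaving out 1 library gave 2 to 3 (VTA and VBT, with S100b added or, without VBT female water 2, Gfap), 8 to 9 (VTA and S1), 5 to 6 (S1 and PrL), 5 to 7 (S1 and NAc) and 4 to 6 (PrL and NAc). Of all genes, 61.9% were called between VTA and VBT in the fentanyl libraries. The shares in the other alternative fits are not given here. With the reported settings they ran from 37.3% (S1 and PrL) to 67.6% (VTA and S1) in these pairs.

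Signs turned only for differences not called with the reported settings, and 3 of the turned values were themselves called: Aldh1l1, VTA minus VBT, in the fentanyl libraries, and Slc6a11, S1 minus PrL and PrL minus NAc, without other tissue. Glul, VBT minus S1, was -0.01 with DESeq2's size factors, its Wald test and the replicate block, -0.02 with the mean of 50 counts and without other tissue, and -0.02 to 0.03 with single libraries left out. With GC offsets, Slc1a3 and Gja1, VTA minus VBT, were -0.01 and -0.04, and Aldh1l1 was -0.02 (VTA minus S1) and -0.03 (VBT minus S1). Without other tissue, Gfap and Slc6a11, S1 minus PrL, were 0.10 and 0.17, and Slc6a11, PrL minus NAc, was -0.22. In the fentanyl libraries, Aldh1l1 and Slc6a11, VTA minus VBT, were -0.16 and -0.09, Gfap and Slc6a11, S1 minus PrL, 0.31 and 0.06, Gja1, S1 minus NAc, -0.01, and Slc1a3, S100b and Slc6a11, PrL minus NAc, -0.05, -0.15 and -0.09. With VTA male water 3 kept, Aldh1l1, Slc1a3 and Gja1, VTA minus VBT, were -0.15, -0.01 and -0.06, Aldh1l1, VTA minus S1, -0.07, and its exposure effect in VTA males minus females 0.07. With 1 library left out, Slc1a3 ran from -0.03 to 0.09 and Gja1 from -0.01 to 0.07 (VTA minus VBT), Gfap from -0.21 to 0.02 (S1 minus PrL) and Slc6a11 from -0.03 to 0.28 (PrL minus NAc). The cause was not tested. Of the 30 genes named as most like a member, 22 were named again with centring on regions and 29 with a pseudocount of 0.1.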
